A study of Mus musculus with 12 samples.

Results

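Pachytene spermatocytes were set against both populations that flank them in spermatogenesis, the prepachytene spermatocytes before them and the spermatids after them, to find genes with a transient peak or trough at this stage. All 12 arrays of the series entered: 4 of pachytene spermatocytes, 4 of prepachytene spermatocytes and 4 of spermatids. In each population 2 arrays came from PWD/Ph males (PWD, an inbred strain derived from wild mice) and 2 from C57BL/6J males (B6, a classical laboratory strain), all adults of 8 to 10 weeks with no treatment. The cells were sorted by flow cytometry from whole testes, and each sort was aimed at several neighbouring stages. These were mid to late pachytene with diplotene in the pachytene sort, and leptotene, zygotene and early pachytene in the prepachytene sort. Markers of spermatids and Sertoli cells also gave signal in the prepachytene arrays, as described below. Total RNA of 15 to 40 ng was amplified in 2 cycles and hybridized to Affymetrix 3′ expression arrays of the mouse genome, and all values are log2 GCRMA values.

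A gene was represented by its brightest probeset, which gave 18193 genes. It was called a peak gene if its pachytene value was higher than the mean of the flanking populations, higher than prepachytene and higher than spermatids, with a limma adjusted p under 0.05 in each test, and a trough gene if all 3 differences were negative. By this rule 1401 genes had a pachytene peak (7.70% of the genes measured) and 792 had a pachytene trough (4.35%). The contrast with the mean of the flanking populations alone called 20.7% of genes higher in pachytene and 19.8% lower. Of 45037 probesets it called 6874 higher (15.3%) and 6795 lower (15.1%), of which 2511 passed the peak rule (5.58% of all probesets) and 1261 the trough rule (2.80%). The prominence of a gene, the smaller of its differences from prepachytene and from spermatids, had a median of 1.13 on the log2 scale in peak genes and 1.65 in trough genes, and was at least 2 in 196 peak genes and 285 trough genes. The tests against prepachytene and against spermatids share the pachytene arrays, so an error in these arrays moves both.

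**Figure D1:**
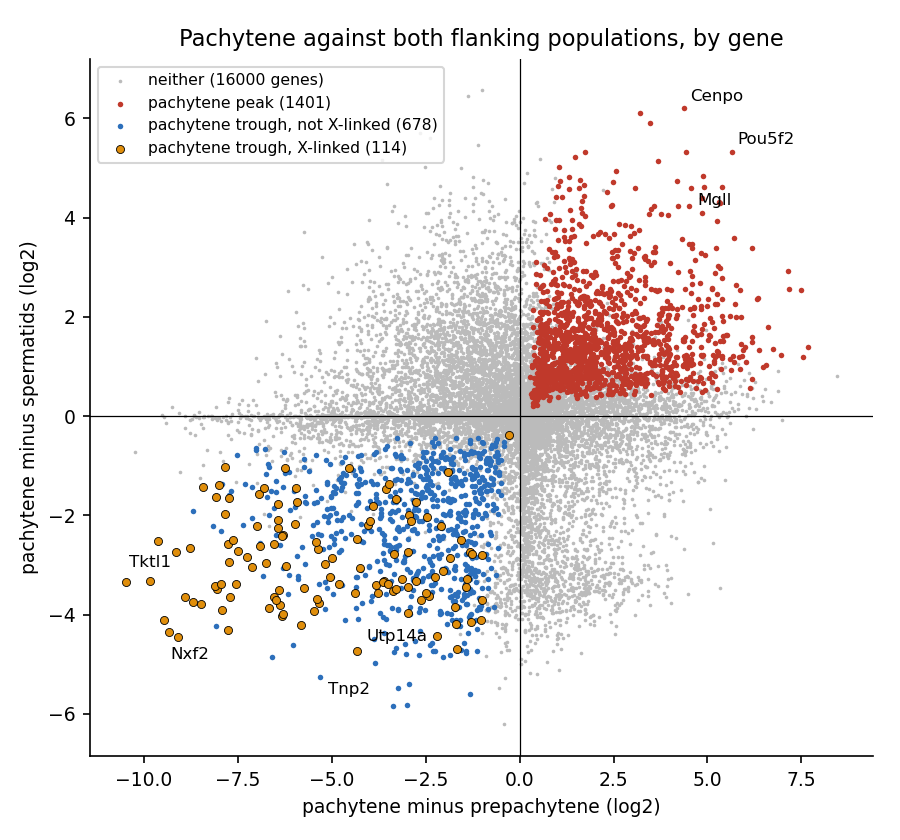
Each point is a gene, placed by its pachytene value minus its prepachytene value (x axis, log2) and its pachytene value minus its spermatid value (y axis, log2). The 1401 peak genes lie in the upper right and the 792 trough genes, 114 of them X-linked, in the lower left.

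In male meiosis, homologous chromosomes pair and recombine in early prophase and stay synapsed through the long pachytene stage. The unpaired parts of the X and Y chromosomes are packed into the sex body, where their genes are silenced, a process called meiotic sex chromosome inactivation. Many autosomal genes switch on at the same stage, among them genes whose proteins are used only in the meiotic divisions or in spermatids, and the transcription factor A-MYB, the product of *Mybl1*, is known to drive part of that programme and of pachytene piRNA production.

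The sequences around the start of 6 peak genes are shown because each holds a match to core letters bound by MYB proteins, CAACTG or CAACGG, which stand in capitals where they or their reverse complement occur. Each run holds 250 bases before and 50 bases after a start that RefSeq gives for the gene (GRCm38.p6), written 5′ to 3′ on the strand of the gene. In *Pou5f2*, *Zbtb8a* and *Tcfl5* that start is the outer end of the annotated gene, whereas in *Cenpo*, *Piwil1* and *Tdrd5* it lies inside the annotated gene.
*Pou5f2* (chr13:78024652-78024951, plus strand): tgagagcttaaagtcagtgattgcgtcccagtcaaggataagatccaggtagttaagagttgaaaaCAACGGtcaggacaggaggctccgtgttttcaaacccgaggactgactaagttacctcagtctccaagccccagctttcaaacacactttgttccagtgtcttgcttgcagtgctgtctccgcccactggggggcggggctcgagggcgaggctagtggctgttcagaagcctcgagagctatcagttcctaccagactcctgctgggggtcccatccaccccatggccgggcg
*Cenpo* (chr12:4233916-4234215, minus strand): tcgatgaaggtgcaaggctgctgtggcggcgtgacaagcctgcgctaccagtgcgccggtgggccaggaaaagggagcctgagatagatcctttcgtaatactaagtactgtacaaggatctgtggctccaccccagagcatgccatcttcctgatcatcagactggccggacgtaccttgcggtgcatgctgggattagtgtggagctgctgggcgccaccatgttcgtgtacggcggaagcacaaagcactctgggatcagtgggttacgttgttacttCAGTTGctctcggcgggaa
*Zbtb8a* (chr4:129377979-129378278, minus strand): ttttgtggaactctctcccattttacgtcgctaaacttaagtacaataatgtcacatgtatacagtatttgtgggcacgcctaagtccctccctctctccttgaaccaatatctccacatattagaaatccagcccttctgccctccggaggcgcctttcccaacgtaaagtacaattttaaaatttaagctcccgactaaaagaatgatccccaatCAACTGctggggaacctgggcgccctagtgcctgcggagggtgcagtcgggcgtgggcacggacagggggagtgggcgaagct
*Piwil1* (chr5:128735996-128736295, plus strand): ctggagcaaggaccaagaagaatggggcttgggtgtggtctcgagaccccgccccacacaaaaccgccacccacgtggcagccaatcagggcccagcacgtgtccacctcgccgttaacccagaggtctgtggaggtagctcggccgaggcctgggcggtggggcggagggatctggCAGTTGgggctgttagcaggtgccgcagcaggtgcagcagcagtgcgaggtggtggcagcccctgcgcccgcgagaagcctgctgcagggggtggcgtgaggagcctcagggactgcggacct
*Tdrd5* (chr1:156303299-156303598, minus strand): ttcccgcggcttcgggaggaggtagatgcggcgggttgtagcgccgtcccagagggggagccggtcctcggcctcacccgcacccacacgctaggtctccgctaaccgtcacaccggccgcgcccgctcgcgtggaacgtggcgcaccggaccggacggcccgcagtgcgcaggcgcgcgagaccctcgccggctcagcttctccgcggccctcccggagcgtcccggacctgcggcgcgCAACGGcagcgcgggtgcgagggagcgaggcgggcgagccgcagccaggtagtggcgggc
*Tcfl5* (chr2:180642642-180642941, minus strand): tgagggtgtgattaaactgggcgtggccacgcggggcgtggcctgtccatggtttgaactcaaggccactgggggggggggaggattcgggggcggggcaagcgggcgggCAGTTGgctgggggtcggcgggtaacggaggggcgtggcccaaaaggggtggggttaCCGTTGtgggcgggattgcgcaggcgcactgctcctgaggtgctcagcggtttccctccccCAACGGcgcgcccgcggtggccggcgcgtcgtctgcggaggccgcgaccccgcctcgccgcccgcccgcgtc
*Tcfl5* held 3 matches and the other genes 1 each. Of the 1152 peak genes with such a window, 22.2% held at least 1 match to either form, and of all 14452 measured genes with a window 17.5% did. The share was 20.0% in the 100 X-linked and 14.7% in the 565 autosomal trough genes with a window. Of the other letters searched on both strands, CACGCG, an E-box form, occurred in 20.2% of peak genes and 14.4% of all genes. TGACGT, the core of the cAMP response element, occurred in 18.6% of autosomal trough genes, 16.0% of X-linked trough genes, 10.5% of peak genes and 9.99% of all genes. GTTGCC, an RFX motif, occurred in 13.5% of peak genes and 12.8% of all genes, and TTCCCGC, an E2F site, in 7.29% and 6.96%. The median GC content of the windows was 60.33% in peak genes, 62.33% in autosomal trough genes, 58.17% in X-linked trough genes and 58.67% in all genes, and its part in these shares was not tested. A match describes the sequence, and binding was not measured.

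Of the 1401 peak genes, 1381 had a pachytene mean above the background level of 3.79, taken as the 95th percentile over 62 probesets that report genes specific to other organs. Not all of that set was silent: of its 37 measured genes, 9 had a population mean above this level and 1 was a peak gene. In 968 peak genes all 4 pachytene arrays lay above the other 8 arrays, a pattern shown by 5.98% of all genes measured and favoured by the rule, which used the same arrays. In 920 peak genes (65.7%) the difference from prepachytene was the larger, with a median difference of 1.85 from prepachytene and 1.35 from spermatids. The same rule applied to the arrays of 1 strain called 908 of them in PWD, 1012 in B6 and 690 in both, which describes the arrays that chose the genes.

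The most prominent peak was that of *Pou5f2*, a POU-domain transcription factor gene of male germ cells on chromosome 13. Its values were 12.31 and 12.55 in PWD and 11.86 and 11.80 in B6 pachytene cells, against 6.46 and 6.47 in PWD and 6.49 and 6.50 in B6 prepachytene cells and 6.92 and 6.96 in PWD and 6.44 and 6.88 in B6 spermatids. The pachytene arrays did not overlap the others, and their mean exceeded prepachytene by 5.65 (standard error 0.16) and spermatids by 5.33 (limma, adjusted p = 2.4e-09 and 1.8e-07). *Cenpo*, which encodes a kinetochore protein, had 12.59 and 12.72 in PWD and 12.18 and 12.20 in B6 pachytene cells, against 7.53 to 8.73 in prepachytene cells and 5.64 to 6.53 in spermatids. Its groups did not overlap either, and its second probeset above the background level gave differences of 3.92 and 5.22. *Mgll*, which encodes monoacylglycerol lipase, averaged 12.39 ± 0.28 in pachytene cells, 7.81 ± 0.46 in prepachytene cells and 7.78 ± 0.43 in spermatids (SD, n = 4 each), where the SD includes the difference between the strains, and 2 of its other 3 probesets were also called peaks. *Zbtb8a*, a BTB zinc finger gene, was at 6.58 to 6.95 in pachytene cells, 2.46 to 2.67 in prepachytene cells and 2.45 to 2.67 in spermatids, so both flanking populations lay below the background level and its prominence of 4.21 was measured against the floor of the array.

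The other peak genes with the largest prominence were *4931408D14Rik*, *Susd5*, *Dnaaf6*, *Gm26588*, *Chst15*, *Trim14*, *Gem*, *Fbn2*, *Bnip5*, *1700006A11Rik* and *Dcdc2b*, with prominences of 3.94 to 4.83. *Dnaaf6* encodes an assembly factor of axonemal dynein, *Chst15* a sulfotransferase of chondroitin sulfate, *Gem* a small GTP-binding protein and *Fbn2* the matrix protein fibrillin 2. Both flanking means lay below the background level in *Gm26588*, *Chst15*, *Trim14* and *Dcdc2b*, and the prepachytene mean did in *Gem*. *Susd5* had 11.71 and 12.04 in PWD and 10.37 and 10.37 in B6 pachytene cells, against 7.25 and 7.31 in PWD and 5.18 and 3.16 in B6 prepachytene cells and 9.25 and 9.43 in PWD and 4.01 and 3.31 in B6 spermatids. The flanking populations of PWD lay above those of B6, and the contrast was 3.56 in PWD and 6.46 in B6 (limma, adjusted p of the strain difference = 0.047).

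**Figure D2:**
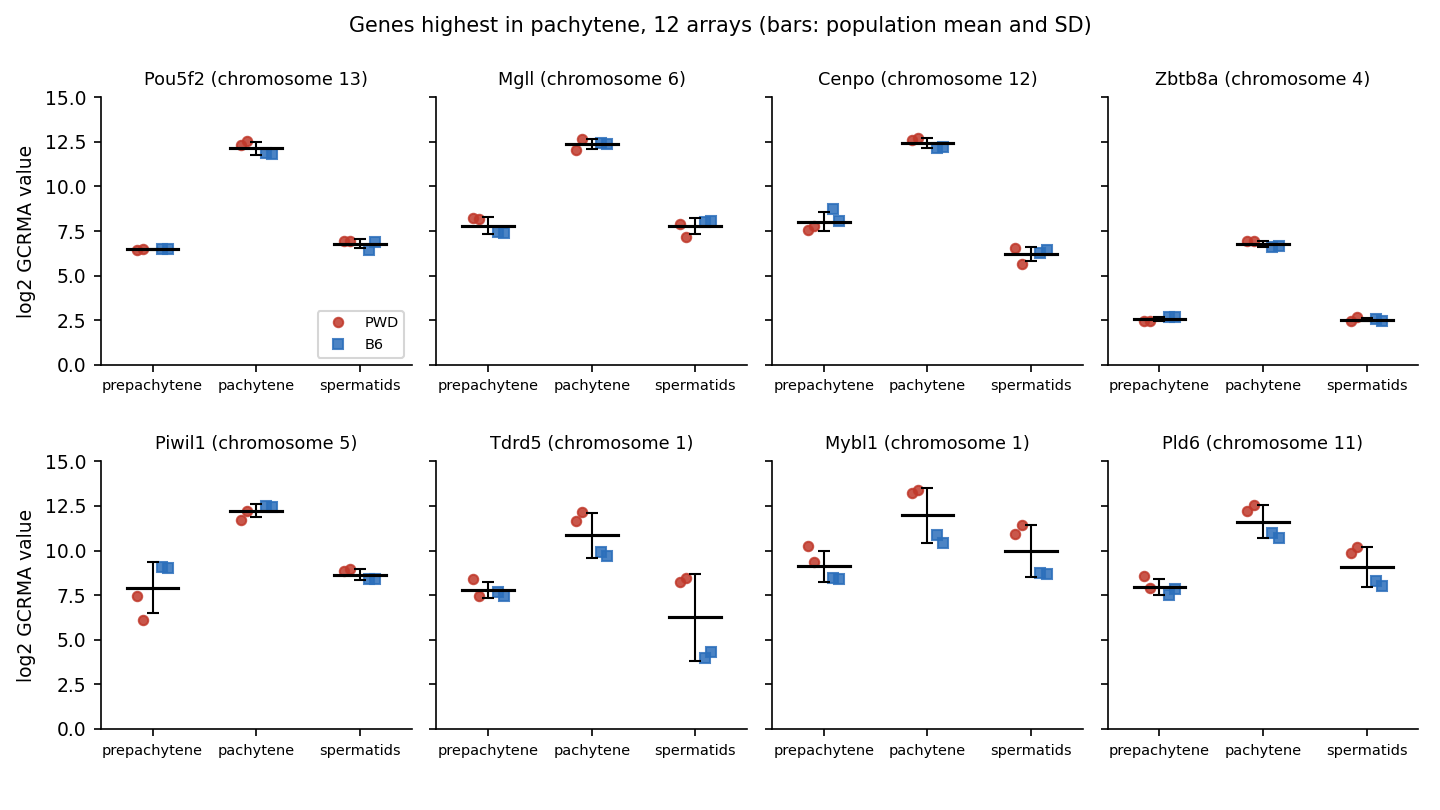
Log2 GCRMA values of 8 peak genes in the 12 arrays (y axis), with prepachytene, pachytene and spermatid arrays along the x axis, PWD and B6 arrays marked by different symbols, and lines for the mean and SD of the 4 arrays of a population. *Pou5f2*, *Mgll*, *Cenpo* and *Zbtb8a* are high in the pachytene arrays of both strains, and *Mybl1* has its highest values in PWD pachytene cells.

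The piRNA pathway, which makes and uses small RNAs bound by PIWI proteins, had 7 peak genes and 1 trough gene among 21 measured, with a median contrast of 0.92 against 0.03 over all genes. Over all genes measured, 7.70% were peaks and 4.35% were troughs. *Piwil1*, which encodes a PIWI protein that binds pachytene piRNAs, had 11.72 and 12.23 in PWD and 12.51 and 12.44 in B6 pachytene cells, against 6.11 to 9.09 in prepachytene cells and 8.40 to 8.96 in spermatids. The pachytene arrays lay above the others, with differences of 4.31 and 3.58 (limma, adjusted p = 4.6e-05 and 3.5e-04). *Tdrd5*, a Tudor-domain gene, was at 9.68 to 12.16 in pachytene cells, 7.47 to 8.42 in prepachytene cells and 3.98 to 8.43 in spermatids, where the B6 arrays were the low ones. *Pld6*, which encodes a mitochondrial nuclease of piRNA processing, averaged 11.62 ± 0.91 in pachytene cells, 7.95 ± 0.44 in prepachytene cells and 9.10 ± 1.12 in spermatids (SD, n = 4 each). *Tdrd1*, *Tdrd3* and *Tdrd12*, further Tudor-domain genes, rose over spermatids by 0.76, 0.65 and 1.09, with overlapping arrays in each, and the second *Tdrd3* probeset above the background level differed from prepachytene by -0.51. *Tdrd1* and *Tdrd3* each lost the peak call in 11 of 25 alternatives, 5 of which left out a single array for *Tdrd1* and 6 for *Tdrd3*. *Rnf17*, which encodes a Tudor-domain protein of germ cell granules, was the trough gene, with differences of -0.76 and -1.24. Of its 3 other probesets above the background level 1 was also a trough, but the others were higher than spermatids by 1.42 and 1.06 (limma, adjusted p = 7e-05 and 0.030), and the call was lost with the mean of all its probesets. *Henmt1*, which methylates piRNA ends, rose over prepachytene by 5.97 but averaged 9.35 in pachytene cells and 8.63 in spermatids (limma, adjusted p = 0.4).

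Of 21 transcription regulators of male meiosis, 3 were peak genes and 4 were trough genes, where 7.70% and 4.35% of all genes were. *Mybl1* had 13.24 and 13.37 in PWD and 10.85 and 10.42 in B6 pachytene cells, against 10.24 and 9.35 in PWD and 8.45 and 8.42 in B6 prepachytene cells and 10.94 and 11.45 in PWD and 8.74 and 8.68 in B6 spermatids. The pachytene arrays were the highest within each strain, while B6 pachytene lay below PWD spermatids. *Rfx4*, of the RFX family, exceeded prepachytene by 3.74 and spermatids by 1.45. *Tcfl5*, which encodes a helix-loop-helix factor of spermatocytes, exceeded them by 0.82 and 0.38 (limma, adjusted p = 9.9e-06 and 0.0042), and its pachytene values of 15.60 to 16.07 overlapped the spermatid values of 15.37 to 15.68. The trough genes were *Rfx1*, *Spz1*, *Taf7l* and *Zfx*, of which *Taf7l* and *Zfx* are X-linked. *Rfx1* lost the call in 6 of 25 alternatives, and *Spz1* and *Zfx* each lost it in 5.

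Among 40 genes of the meiotic divisions, 5 were peak genes and 3 were trough genes, where 7.70% and 4.35% of all genes were. *Aurkc*, which encodes the meiotic Aurora kinase, had 10.84 and 10.71 in PWD and 12.36 and 12.13 in B6 pachytene cells, against 4.05 and 4.19 in PWD and 8.37 and 7.83 in B6 prepachytene cells and 7.98 and 8.39 in PWD and 10.88 and 11.12 in B6 spermatids. B6 spermatids lay above PWD pachytene cells, and the contrast was 4.62 in PWD and 2.70 in B6 (limma, adjusted p of the strain difference = 0.0061). *Aurkb*, which encodes the kinase of the chromosomal passenger complex, rose by 2.49 over prepachytene and 2.02 over spermatids, with a contrast of 1.49 in PWD and 3.02 in B6 (limma, adjusted p = 0.049). *Nek2*, a centrosomal kinase gene, *Pttg1*, which encodes securin, and *Ttk*, a spindle checkpoint kinase gene, rose by 0.70 to 1.25 over either population without overlap. *Ccna2*, which encodes cyclin A2, was a trough gene and averaged 3.83 ± 0.12 in pachytene cells, 10.31 ± 1.27 in prepachytene cells and 6.24 ± 0.57 in spermatids (SD, n = 4 each). The other *Ccna2* probeset averaged 9.27 in prepachytene cells, 3.07 in pachytene cells and 3.42 in spermatids (limma, adjusted p = 0.35 against spermatids). *Bub1*, a checkpoint kinase gene (-2.48 and -0.72), and *Mastl*, the Greatwall kinase gene (-1.91 and -2.30), were the other trough genes, and *Bub1* lost the call in 12 of 25 alternatives. Other probesets of *Bub1* and *Mastl* above the background level differed from spermatids by 1.19 and 0.24 (limma, adjusted p = 0.58 and 0.66). *Ccna1*, which encodes the cyclin A of male meiosis, exceeded prepachytene by 5.81, whereas its difference from spermatids was 0.24 (limma, adjusted p = 0.83).

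In crossover formation and mismatch repair, 4 of 16 genes were peaks and 2 were troughs, where 7.70% and 4.35% of all genes were. *Mlh3*, a gene of crossover formation, was at 9.37 to 9.88 in pachytene cells, 7.13 to 8.85 in prepachytene cells and 4.34 to 6.65 in spermatids. *Msh3*, a mismatch recognition gene (1.85 and 1.38), and *Slx4*, which encodes a scaffold of nucleases (2.39 and 1.07), also rose without overlap. Another *Msh3* probeset above the background level rose over prepachytene by 1.75, but its difference from spermatids was 0.27 (limma, adjusted p = 0.82). *Cdk2*, a kinase gene, rose by 1.66 and 4.33, but its B6 prepachytene values of 10.06 and 10.51 overlapped its pachytene values of 10.22 to 10.99. The peak call was lost in 7 of 25 alternatives for *Mlh3*, 6 for *Cdk2* and 2 for *Slx4*, and each of them lost it when a single array was left out. *Msh4*, which acts on recombination intermediates, was a trough gene (-3.69 and -1.88), as was *Pms1* (-2.35 and -1.53). Of 18 pachytene markers, 5 were peak genes, where 7.70% of all genes were. Of these 18, 16 were higher than prepachytene, where 37.1% of all genes were. Only 5 were higher than spermatids, where 19.3% of all genes were. *Macroh2a1*, which encodes a histone variant found in the sex body, was a peak gene and averaged 11.89 ± 0.38 in pachytene cells, 9.88 ± 0.34 in prepachytene cells and 10.44 ± 0.27 in spermatids (SD, n = 4 each).

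In energy metabolism, *Slc2a3*, a glucose transporter gene, rose by 2.64 over prepachytene and 1.32 over spermatids, and *Pfkm*, which encodes a phosphofructokinase, rose by 3.07 and 0.50. They were the 2 peak genes among 26 genes of glycolysis, a share like the 7.70% of all genes, and *Pfkm* lost the call in 10 of 25 alternatives. *Pkm*, *Pgk1* and *Gapdhs* were the 3 trough genes, where 4.35% of all genes were. *Pkm*, the pyruvate kinase gene, was at 6.55 to 7.62 in pachytene cells, 9.90 to 10.13 in prepachytene cells and 10.13 to 11.00 in spermatids. Of 44 mitochondrial carriers of the Slc25 family, 6 were peaks and 4 were troughs, where 7.70% and 4.35% of all genes were. *Slc25a10*, the dicarboxylate carrier gene, was at 10.21 to 10.29 in pachytene cells, 4.72 to 5.62 in prepachytene cells and 8.51 to 8.72 in spermatids, with no overlap. *Slc25a44*, a carrier of branched-chain amino acids, averaged 9.10 ± 0.63 in pachytene cells, 4.58 ± 0.76 in prepachytene cells and 6.95 ± 1.17 in spermatids (SD, n = 4 each). *Slc25a4* (-3.59 and -1.25) and the X-linked *Slc25a5* (-4.31 and -2.47), both ADP/ATP translocase genes, fell. Of 46 cytosolic ribosomal protein genes, 37 were lower than prepachytene, where 25.5% of all genes were, and 20 were higher than spermatids, where 19.3% were. The 1 trough gene among the 46 was the X-linked *Rps4x* (-7.00 and -2.21).

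**Figure D3:**
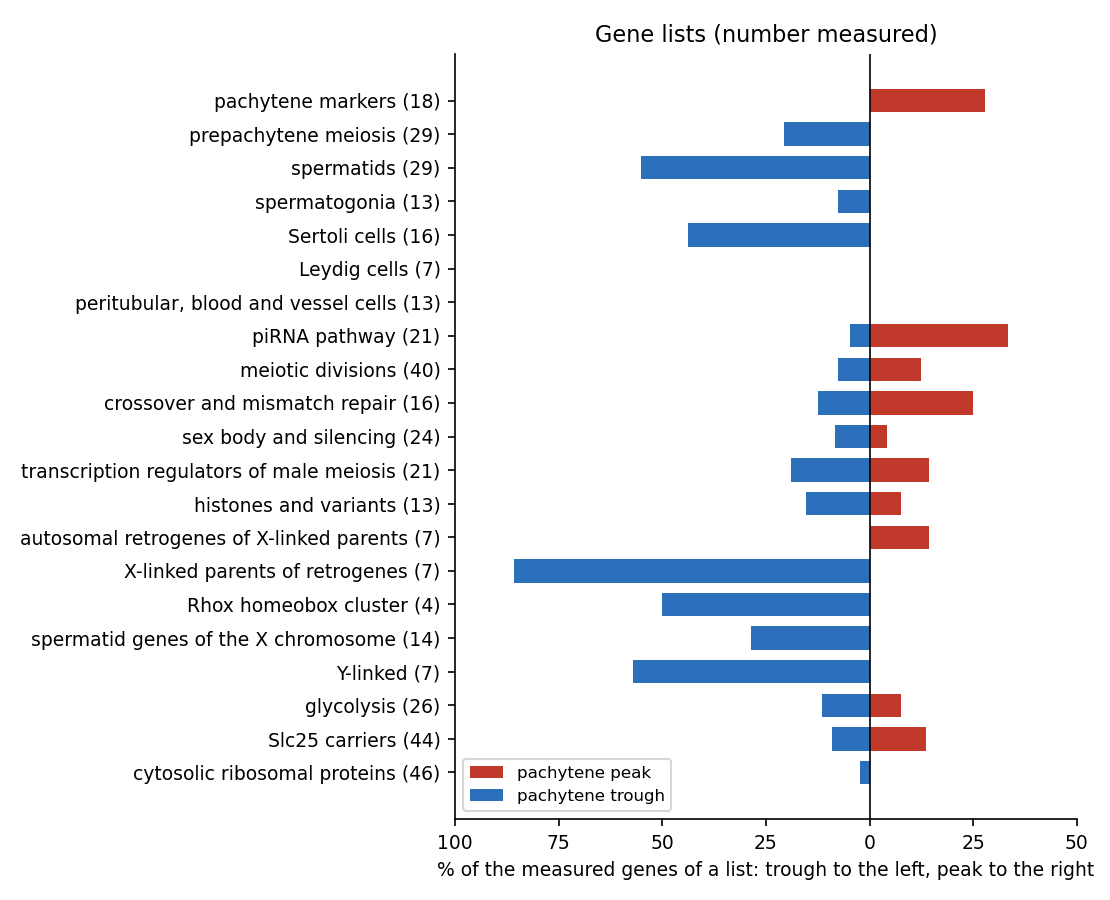
Share of the measured genes of each list except the genes of other organs (y axis) with a pachytene peak or trough, in percent (x axis). Over all genes 7.70% were peaks and 4.35% were troughs, and in the piRNA pathway 7 of 21 genes were peaks.

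The X chromosome held troughs and no peak. Of 618 X-linked genes measured, 114 were trough genes (18.4%), compared with 3.85% of autosomal genes, and 0 were peak genes, compared with 7.98% of autosomal genes. On single autosomes the share of trough genes was between 2.89% and 6.02%, and that of peak genes between 5.97% and 11.0%. The count of 0 is from limma at adjusted p under 0.05, and at unadjusted p under 0.05 in all 3 tests 2 X-linked genes had a peak. In 59 X-linked genes the pachytene mean lay above both other means. Across the alternatives 3 X-linked genes were called a peak at least once: *Lage3* and *Magea7-ps* when each of the 6 groups had its own mean, *Magea7-ps* and *Trex2* in the PWD arrays alone, and *Trex2* without B6 pachytene replicate 2 and with the mean of all probesets of a gene. *Lage3* was at 6.79 to 8.04 in pachytene cells, 5.83 to 6.98 in prepachytene cells and 6.47 to 6.60 in spermatids, and *Magea7-ps* and *Trex2* lay below the background level in all 12 arrays.

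**Figure D4:**
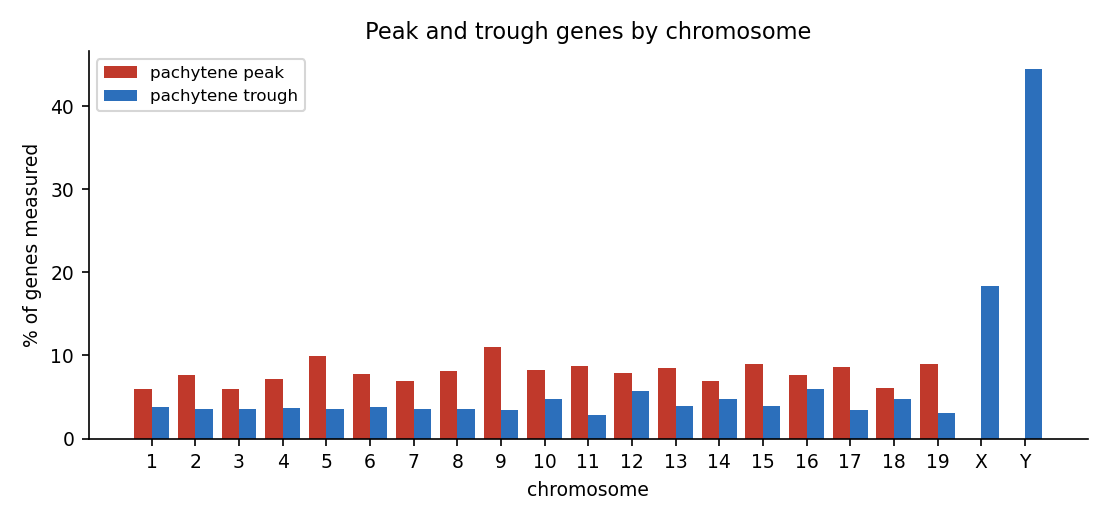
Percent of the genes measured on each chromosome (y axis) with a pachytene peak or trough, chromosomes 1 to 19, X and Y along the x axis. The X has 18.4% trough genes and 0 peak genes, and the Y has 4 trough genes of 9.

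Of 388 X-linked genes with a mean above the background level in at least 1 population, 172 were lower than prepachytene only, 71 were lower than spermatids only, 113 were lower than both and 32 were lower than neither. The pachytene mean lay below the background level in 224 of them, and 0 were called higher than spermatids, where 19.3% of all genes were. The X-linked trough genes had a median prominence of 2.62, against 1.52 in autosomal trough genes. Their median difference was -5.40 from prepachytene and -3.05 from spermatids, against -2.41 and -1.96 in autosomal trough genes. The rule placed the pachytene means of these genes below both others, so their levels are a description: the median over the 114 genes was 4.18 to 4.66 in pachytene arrays, 9.94 to 10.54 in prepachytene arrays and 7.38 to 7.74 in spermatid arrays. The spermatid mean lay below the prepachytene mean in 86 of the 114 genes, against 397 of the 674 autosomal trough genes.

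*Nxf2*, which encodes an mRNA export factor of germ cells, had 3.94 and 2.72 in PWD and 3.77 and 3.13 in B6 pachytene cells, against 12.06 to 13.08 in prepachytene cells and 7.74 to 7.99 in spermatids. *Cdk16*, a kinase gene needed for sperm differentiation, was at 3.14 to 4.15 in pachytene cells, 12.60 to 13.30 in prepachytene cells and 7.61 to 8.28 in spermatids, with differences of -9.32 and -4.36 (limma, adjusted p = 2.0e-09 and 2.2e-06). Both genes had pachytene means below the background level, where the array does not resolve how low a gene is, and 2 other *Cdk16* probesets were also called troughs. *Lamp2*, a lysosomal membrane gene, was at 5.47 to 7.27 in pachytene cells, 11.26 to 12.82 in prepachytene cells and 10.10 to 10.71 in spermatids, but 1 of its other 3 probesets was called a trough and the spermatid means of these 3 were 3.22 to 5.02. *Utp14a*, *Pwwp3b*, *Rps6ka6*, *Vbp1*, *Phka2*, *Otud5* and *Pbdc1*, which complete the 10 largest X-linked prominences, had prominences of 3.91 to 4.31, of which those of *Rps6ka6* and *Pbdc1* were measured against the floor of the array, since their pachytene means lay below the background level. The other *Rps6ka6* probeset differed from prepachytene by -5.03 but from spermatids by -0.02, and was not called a trough.

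Of 7 X-linked genes that have autosomal retrocopies, 6 were troughs and all 7 were lower than prepachytene. Among the 388 X-linked genes above the background level in at least 1 population, 29.1% were troughs. The share was 5.78% among autosomal genes chosen by the same level. Of these 388, 172 were lower than prepachytene only and 113 were lower than both populations. *Utp14a*, a gene of ribosome biogenesis, had 3.68 and 3.46 in PWD and 4.35 and 5.94 in B6 pachytene cells, against 7.57 and 7.84 in PWD and 9.69 and 9.60 in B6 prepachytene cells and 7.92 and 8.56 in PWD and 9.98 and 9.90 in B6 spermatids, so every pachytene array lay below the others. *Cetn2*, which encodes a centrin, averaged 4.83 ± 0.22 in pachytene cells, 12.37 ± 0.36 in prepachytene cells and 8.21 ± 0.26 in spermatids (SD, n = 4 each). *Tktl1*, a transketolase-like gene, was at 3.40 to 4.31 in pachytene cells, 13.55 to 14.66 in prepachytene cells and 6.39 to 7.66 in spermatids, with a pachytene mean below the background level. Other *Tktl1* probesets above the background level differed from spermatids by -1.28 and -0.02, and neither was called a trough. *Pgk1*, *Cstf2* and *Rbmx* were the other parents called. Of the 7 autosomal retrogenes measured, 6 were higher than prepachytene, where 37.1% of all genes were. The 1 peak gene among them, where 7.70% of all genes were peaks, was *Cstf2t*. It was at 11.85 to 12.71 in pachytene cells, 11.55 to 11.91 in prepachytene cells and 9.78 to 10.60 in spermatids, with overlap between pachytene and prepachytene. The call was lost in 10 of 25 alternatives, among them the replicate block, the B6 arrays alone and 5 that left out a single array. Its X-linked parent *Cstf2*, a polyadenylation factor gene, was at 4.91 to 6.05 in pachytene cells, 7.70 to 9.45 in prepachytene cells and 8.29 to 9.20 in spermatids. Another *Cstf2* probeset above the background level averaged 10.89 in prepachytene cells, 2.96 in pachytene cells and 3.39 in spermatids (limma, adjusted p = 0.56 against spermatids).

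Further X-linked troughs belonged to the lists of meiotic, spermatid, Rhox and Sertoli cell genes. Among all X-linked genes measured, 18.4% were troughs. *Scml2*, a Polycomb-related gene of the germline, differed by -8.90 and -3.65, and *Tex11*, a meiotic recombination gene, by -8.05 and -3.49. The other *Scml2* probeset averaged 13.33 in prepachytene cells, 3.16 in pachytene cells and 3.35 in spermatids (limma, adjusted p = 0.82 against spermatids). *Rhox13* (-9.62 and -2.52) and *Rhox5* (-4.53 and -1.05) were the 2 troughs among 4 measured genes of the Rhox homeobox cluster. *Rhox5* is also a Sertoli cell marker. Of 14 spermatid genes of the X, 13 were lower than spermatids, where 14.1% of all genes were, and 4 were troughs, *Akap4*, *Fmr1nb*, *Prdx4* and *Ube2a*. The other *Ube2a* probeset differed from prepachytene by -7.59 but from spermatids by -0.13 (limma, adjusted p = 0.90 against spermatids). *Akap4*, which encodes a scaffold of the sperm tail and is also a spermatid marker, was at 10.72 to 11.82 in pachytene cells, 11.87 to 12.63 in prepachytene cells and 14.53 to 15.03 in spermatids. Another bright *Akap4* probeset differed from prepachytene by -0.63 (limma, adjusted p = 0.14), while a further probeset was also a trough.

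On the Y chromosome 4 of 9 genes measured were trough genes, where 4.35% of all genes were. *Usp9y*, which encodes a ubiquitin-specific protease, had 3.58 and 2.95 in PWD and 2.85 and 2.75 in B6 pachytene cells, against 10.81 to 11.26 in prepachytene cells and 6.91 to 7.57 in spermatids. *Zfy2*, a zinc finger gene, was at 6.61 to 6.99 in pachytene cells, 11.47 to 12.16 in prepachytene cells and 8.78 to 9.81 in spermatids. *Eif2s3y*, which encodes a translation factor subunit, was at 9.12 to 10.57 in pachytene cells, 13.79 to 14.08 in prepachytene cells and 12.53 to 13.08 in spermatids, so it stayed above the background level in pachytene cells. *Uba1y*, which encodes a ubiquitin-activating enzyme, differed by -6.30 and -3.06. Cross-hybridization with X-linked homologues was not tested.

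**Figure D5:**
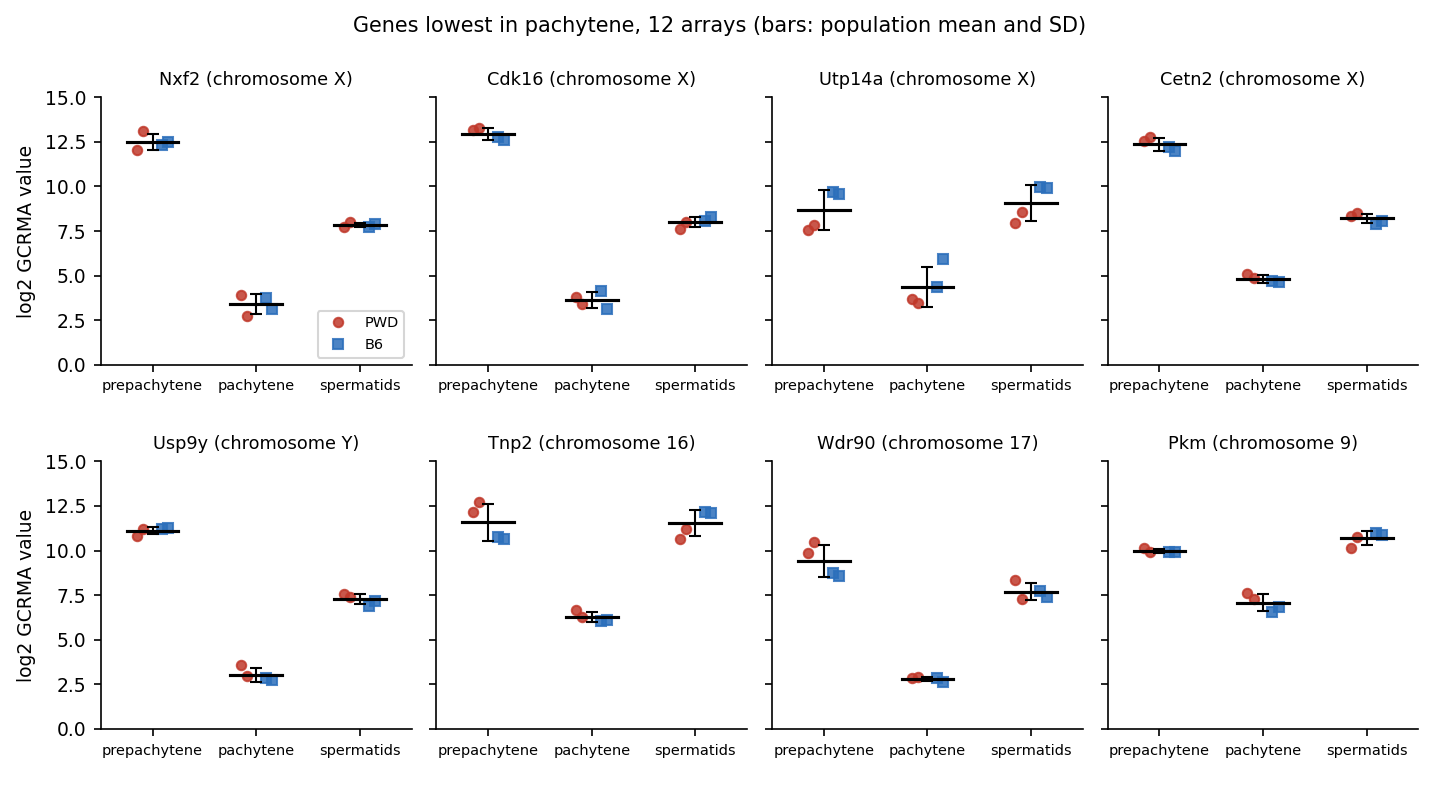
Log2 GCRMA values of 8 trough genes in the 12 arrays (y axis), with prepachytene, pachytene and spermatid arrays along the x axis, PWD and B6 arrays marked by different symbols, and lines for the mean and SD of the 4 arrays of a population. The sex-linked *Nxf2*, *Cdk16*, *Utp14a*, *Cetn2* and *Usp9y* and the autosomal *Tnp2*, *Wdr90* and *Pkm* are lowest in the pachytene arrays of both strains.

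Of the 674 autosomal trough genes, 518 had all 4 pachytene arrays below the other 8 arrays, a pattern shown by 4.10% of all genes measured. The largest autosomal prominence was that of *Tnp2*, which encodes a transition protein of condensing spermatid chromatin. It had 6.68 and 6.28 in PWD and 6.06 and 6.13 in B6 pachytene cells, against 12.18 and 12.74 in PWD and 10.77 and 10.67 in B6 prepachytene cells and 10.67 and 11.19 in PWD and 12.15 and 12.13 in B6 spermatids. *Prm2*, a protamine gene, was at 7.88 to 8.54 in pachytene cells, 11.55 to 13.44 in prepachytene cells and 11.70 to 12.74 in spermatids. Both are genes of late spermatids, and their prepachytene and spermatid values overlapped. Of 29 spermatid markers 16 were trough genes, where 4.35% of all genes were, 28 were lower than spermatids, where 14.1% were, and 16 were lower than prepachytene, where 25.5% were. The log2 of their summed level was 15.88 to 16.58 in pachytene arrays, 16.49 to 17.57 in prepachytene arrays and 18.13 to 18.85 in spermatid arrays, and all 29 lay above the background level in every array.

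Of 16 markers of Sertoli cells, the somatic cells that nurse germ cells, 7 were trough genes, where 4.35% of all genes were. These were *Aard*, *Clu*, *Cst9*, *Cst12*, *Ctsl*, *Rhox5* and *Vim*, and *Rhox5* and *Vim* each lost the call in 12 of 25 alternatives. Other *Vim* probesets above the background level differed from spermatids by -0.17 and -0.27 (limma, adjusted p = 0.91 and 0.94). The log2 of the summed level of the 16 markers was 9.11 to 9.78 in pachytene arrays, 14.64 to 15.52 in prepachytene arrays and 10.31 to 11.59 in spermatid arrays. *Clu*, which encodes clusterin, was at 7.43 to 8.12 in pachytene cells, 12.77 to 14.51 in prepachytene cells and 9.22 to 10.05 in spermatids. Of 7 Leydig cell markers 3 lay above the background level in any population, as did 2 of 13 peritubular, blood and vessel markers, so most of both lists lay near the floor of the array, and no gene of either list was a peak or a trough. In bulk samples fewer cells of a type and less RNA per cell cannot be told apart. The part of spermatid and Sertoli cell RNA in the troughs, autosomal or X-linked, was not tested.

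Further autosomal troughs came from other functions. *Wdr90*, a gene of centrioles, was at 2.66 to 2.90 in pachytene cells, 8.57 to 10.48 in prepachytene cells and 7.29 to 8.34 in spermatids. *Vcl*, which encodes the adhesion protein vinculin, had 6.44 and 2.99 in PWD and 6.14 and 4.81 in B6 pachytene cells, against 10.52 to 11.63 in prepachytene cells and 9.36 to 9.96 in spermatids, while its second probeset differed from spermatids by -3.98 and from prepachytene by -0.28. *Nfe2l2*, which encodes the oxidative stress factor NRF2, was at 3.02 to 6.60 in pachytene cells, 8.73 to 9.34 in prepachytene cells and 6.69 to 9.91 in spermatids, without overlap. *Agap1*, *Hs2st1*, *Ptp4a3*, *Wdsub1* and *M1ap*, of which *M1ap* is a gene of male meiosis, had prominences of 3.76 to 4.10. Other *Hs2st1* probesets above the background level differed from spermatids by -0.24 and -0.48 (limma, adjusted p = 0.91 and 0.19). The calls of *Hs2st1* and *Vcl* were lost in the PWD arrays alone. The pachytene means of *Wdr90*, *Ptp4a3* and *Wdsub1* lay below the background level, so their prominences were measured against the floor of the array. Of 29 genes of early meiosis 6 were troughs, where 4.35% of all genes were. These were *Dazl*, *Rec8*, *Syce2*, *Syce3*, *Tex11* and *Tex15*. Of the 29 genes, 25 were lower than prepachytene, where 25.5% of all genes were. The other bright probeset of *Dazl* was higher than spermatids by 1.28 (limma, adjusted p = 0.032), and *Dazl* lost the call with the mean of its probesets and in the PWD arrays alone. *Rec8* lost it in 11 of 25 alternatives, 4 of which left out a single array. *Tex15*, a gene of double-strand break repair, averaged 8.02 ± 0.57 in pachytene cells, 14.15 ± 0.33 in prepachytene cells and 11.21 ± 0.07 in spermatids (SD, n = 4 each). *Brca1*, a DNA damage response gene of the sex body list, differed by -5.36 and -2.68.

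The contrast depended on strain in 3124 of 45037 probesets (6.94%) by a limma test of the PWD contrast minus the B6 contrast. This count rested on single arrays and was 1617 without B6 pachytene replicate 2 and 9165 without PWD prepachytene replicate 1, the lowest and highest with 1 array left out. Among genes the share was 7.67%, among the 11033 genes with a mean above the background level 7.69%, and it was 5.35% in peak genes (75 of 1401) and 5.18% in trough genes (41 of 792), with 4 of the 114 X-linked trough genes. The 6 genes above the background level with the largest dependence were neither peak nor trough genes over both strains. *Tekt5*, which encodes a tektin of the sperm tail, had 3.02 and 2.62 in PWD and 10.15 and 10.04 in B6 pachytene cells, with a contrast of -3.51 in PWD and 2.18 in B6 (difference -5.69, limma, adjusted p = 1.5e-05). *Ccr7*, a chemokine receptor gene, had 8.67 and 8.34 in PWD and 2.68 and 2.68 in B6 pachytene cells (difference of the contrasts 5.03). *Erbb3*, a receptor tyrosine kinase gene, had 11.27 and 11.40 in PWD and 3.04 and 2.97 in B6 pachytene cells (difference 4.83), a dependence lost without PWD pachytene replicate 2 or either B6 pachytene array. *Niban1* (difference -4.87) and *Egflam* (-4.51) were lower in PWD, at 2.92 and 2.93 and at 3.18 and 2.82 in pachytene cells, than in B6, at 11.36 and 11.09 and at 10.47 and 10.16. *Rsad1* had 7.64 and 8.01 in PWD and 2.99 and 2.76 in B6 pachytene cells (difference 4.44). Differences between the strains in the sequence under a probe were not tested.

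The 2 arrays of each group had a Pearson r of 0.987 to 0.996 over all probesets. PWD pachytene replicate 1 had the highest summed level of the spermatid markers among the pachytene arrays (16.58, against 15.88 to 16.31 in the other 3), and without it 1213 peak genes, 727 trough genes and 114 X-linked trough genes were called. Nearest to the threshold on its inner side stood *Mag*, a peak gene with an excess of 1.17 over spermatids, and *Itpr2*, a trough gene with a difference of -0.66 from prepachytene. Just outside stood *Fn3krp* (1.41 over spermatids) and *Fam166a* (-0.85 from prepachytene). Of the other probesets above the background level of the same genes, 345 of 844 for peak genes (40.9%) and 197 of 600 for trough genes (32.8%) were called in the same shape, 87.6% and 92.5% had a contrast of the same sign, and 5 and 4 were called in the opposite shape.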

How the data were processed

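The deposited log2 values are GCRMA values of the authors, one per probeset and array, which correct the background by probe sequence, normalize quantiles and summarize probes; the version of the tool is not given in the sources used here. Values of 45037 probesets were used, and 64 control probesets were left out. Of the probesets, 34945 named 1 gene, 932 named several and 9160 none in the platform annotation. limma 3.58.1 (R 4.3.3; lmFit, eBayes with trend) was fitted on 12 arrays with population and strain as terms, and p-values were adjusted over all probesets (Benjamini-Hochberg). Strain dependence was tested in a fit where each of the 6 groups had its own mean. The study's methods speak in general of biological replicates for RNA expression, but the labels do not say that the replicate arrays came from separate animals, so p-values measure the spread between these arrays, and 2 arrays per group limit the precision. Named are the most prominent peak and trough genes whose pachytene arrays stand apart from the other 8, up to 4 members of each gene list, other called members of the lists, and the 6 genes with the largest strain dependence. Threshold neighbours, *Henmt1*, *Ccna1* and X-linked genes called in single alternatives were added with their values known. Members and gene lists were chosen with earlier results of these data known. Promoter windows came from RefSeq (GRCm38.p6) for 14452 of 18193 genes. Alternatives were another model, normalization, centring, filter, threshold, variance prior, array weights, a replicate block, single strains, pairs of populations, the mean of all probesets of a gene, and each array left out. The scripts were tested on simulated data. Tables were made with Python 3.11.15 and pandas 2.3.3, figures with matplotlib 3.10.9.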

Additional observations from a re-analysis of the deposited data

Results flagged for a closer look

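In some of the genes named above 1 of the 4 arrays of a population lay far from the other 3 by Dixon's test, which chance alone flags in about 1 in 20 groups. The flags were not adjusted for the number of groups tested, and each group of 4 holds 2 arrays of each strain. *Pou5f2* was at 6.44 in B6 spermatid replicate 1, against 6.88 to 6.96 in the other 3. *4931408D14Rik* was at 8.66 in B6 prepachytene replicate 1, against 6.82 to 7.06 in the other 3. *Dcdc2b* was at 3.83 in B6 spermatid replicate 2, against 2.96 to 3.02 in the other 3. *Phka2* was at 11.29 in PWD prepachytene replicate 2, against 10.70 to 10.79 in the other 3. *Otud5* was at 5.03 in PWD pachytene replicate 1, against 4.10 to 4.21 in the other 3. *Wdr90* was at 2.66 in B6 pachytene replicate 2, against 2.88 to 2.90 in the other 3. *Nfe2l2* was at 9.34 in PWD prepachytene replicate 2, against 8.73 to 8.75 in the other 3. *Cdk2* was at 6.52 in PWD spermatid replicate 1, against 6.17 to 6.21 in the other 3. *Prdx4* was at 11.64 in PWD spermatid replicate 1, against 12.40 to 12.41 in the other 3. *Usp9y* was at 10.81 in PWD prepachytene replicate 1, against 11.19 to 11.26 in the other 3. *Pkm* was at 10.13 in PWD prepachytene replicate 1, against 9.90 to 9.92 in the other 3. *Rps4x* was at 2.61 in B6 pachytene replicate 2, against 3.47 to 3.59 in the other 3. *Rsad1* was at 4.26 in B6 prepachytene replicate 2, against 6.06 to 6.22 in the other 3. *Akap4* was at 12.63 in PWD prepachytene replicate 2, against 11.87 to 11.99 in the other 3. *Pfkm* was at 9.77 in PWD prepachytene replicate 2, against 9.28 to 9.36 in the other 3. *Mag* was at 4.07 in PWD prepachytene replicate 2, against 5.88 to 6.16 in the other 3.

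In the following genes the contrast differed between the strains by the limma test of the PWD contrast minus the B6 contrast. *Susd5* had a contrast of 3.56 in PWD and 6.46 in B6, a difference of -2.90 (limma, adjusted p = 0.0468). *Aurkc* had a contrast of 4.62 in PWD and 2.70 in B6, a difference of 1.92 (limma, adjusted p = 0.00608). *Tekt5* had a contrast of -3.51 in PWD and 2.18 in B6, a difference of -5.69 (limma, adjusted p = 1.52e-05). *Ccr7* had a contrast of 5.07 in PWD and 0.04 in B6, a difference of 5.03 (limma, adjusted p = 0.00192). *Niban1* had a contrast of -1.14 in PWD and 3.73 in B6, a difference of -4.87 (limma, adjusted p = 0.00844). *Erbb3* had a contrast of 4.44 in PWD and -0.40 in B6, a difference of 4.83 (limma, adjusted p = 0.0151). *Egflam* had a contrast of 0.13 in PWD and 4.64 in B6, a difference of -4.51 (limma, adjusted p = 0.000349). *Rsad1* had a contrast of 3.23 in PWD and -1.21 in B6, a difference of 4.44 (limma, adjusted p = 0.00531). *Aurkb* had a contrast of 1.49 in PWD and 3.02 in B6, a difference of -1.53 (limma, adjusted p = 0.0487). *Magea7-ps* had a contrast of 0.29 in PWD and 0.00 in B6, a difference of 0.30 (limma, adjusted p = 0.00255). *Fn3krp* had a contrast of 2.71 in PWD and 0.28 in B6, a difference of 2.43 (limma, adjusted p = 0.00042).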

How the results depend on the processing

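Over the alternatives run, the count of peak genes was between 808 (both differences at least 1) and 1929 (a mean for each of the 6 groups), against 1401, and was 931 at adjusted p under 0.01. The count of trough genes was between 565 and 1076, and that of X-linked trough genes between 96 and 131. Leaving out 1 array at a time gave 1112 to 1380 peak genes, 707 to 795 trough genes, 106 to 117 X-linked trough genes, 5812 to 6760 probesets above and 6002 to 6942 probesets below the mean of the flanking populations. In the PWD arrays alone 13348 probesets were above it, against 6874. The count of probesets whose contrast depended on strain was the least stable: 3124, against 1091 at adjusted p under 0.01, 1634 among probesets above the background level, 6992 with array weights, and 1617 to 9165 with 1 array left out (1902 without B6 pachytene replicate 1, 1617 without B6 pachytene replicate 2, 5838 without B6 prepachytene replicate 1 and 9165 without PWD prepachytene replicate 1). The cause was not tested. With the replicate number as a block, 1218 peak genes, 699 trough genes, 106 X-linked trough genes and 1758 strain-dependent probesets were called. The deviations of same-numbered arrays of a strain correlated at -0.222 to 0.073. With 2 arrays per group this cannot tell whether same-numbered arrays share an animal or a sort. Of 105 peak or trough genes named, 74 were called in the same shape in all 25 alternatives and 31 lost the call in at least 1. *Bub1*, *Cdk2*, *Cstf2t*, *Itpr2*, *Mag*, *Mlh3*, *Pfkm*, *Rec8*, *Rhox5*, *Slx4*, *Spz1*, *Tdrd1*, *Tdrd3*, *Vim* and *Zfx* lost it without 1 single array. The strain dependence of *Erbb3* was lost without PWD pachytene replicate 2 or either B6 pachytene array, and the contrast of *Magea7-ps*, not called, was -0.002 in the B6 arrays alone.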
